A study of Homo sapiens with 4 samples.

Results

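The 10 nuclear genes described here, LRPPRC, SLIRP, FASTK, FASTKD1, FASTKD2, FASTKD3, FASTKD5, PNPT1, TFAM and POLRMT, encode proteins that make, process, stabilise or degrade the RNA of mitochondria. They were taken by gene symbol from a table of 56832 genes, and all 10 were found. SLIRP stands there under its older symbol C14orf156, which RefSeq pairs with it. The libraries come from A375, an established human melanoma line of wild-type genotype per the labels, kept in DMEM with fetal bovine serum. The vehicle group (2 libraries) received isopropanol for 48 h, and the octanoate group (2 libraries) was given octanoate, a fatty acid of medium chain length, at 1 mM for the same time. The stated aim was to find genes and signatures that go up with the fatty acid, and the question here is whether the factors of mitochondrial RNA turnover moved. Nothing in the labels says that the libraries of a group came from separate cultures, so the spread between these libraries may be technical. The p-values and intervals rest on that spread as limma moderates it towards a trend over all tested genes, not on the libraries of 1 gene alone.

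Human mitochondria hold a small circular genome whose strands are each copied into long transcripts that run through many genes. The tRNAs that lie between most genes are cut out, which frees rRNAs and mRNAs, and the mRNAs then receive poly(A) tails, are bound by stabilising proteins or are degraded. Because transcription covers many genes at once, the steady levels of single mitochondrial RNAs are known to depend strongly on these later steps. All of the proteins involved are encoded in the nucleus and imported.

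Depth and identity were checked first. The table gave between 67785956 and 78005035 whole reads per library, and each of the 10 genes rested on at least 878 reads in every library. Replicates were not copies of each other: their counts had a chi-square per degree of freedom of 4.77 in vehicle and 6.50 in octanoate. SOX10, which defines the neural crest lineage, stood between 34072 and 41363 normalised counts, while the pigment genes TYR, DCT, TYRP1, MLANA and PMEL stayed under 100 in every library. The summed count of the 8 lineage markers was 45003 and 49284 in vehicle and 38530 and 43603 in octanoate, with MITF and S100B called lower and PMEL called higher. Of 6 markers of other cell types none was at 0, and their sum was 1270 and 1433 in vehicle and 610 and 665 in octanoate. Among them the keratin KRT14 was called lower, at 942 and 1110 in vehicle and 218 and 266 in octanoate. The endothelial marker PECAM1 was called higher, at 121 and 122 in vehicle and 221 and 249 in octanoate, and PTPRC and KRT5 were too low to test. The part of these shifts in the results below was not tested. Transcripts of the mitochondrial genome held 3.03% and 3.05% of the reads in vehicle and 3.19% and 3.21% in octanoate. In bulk RNA such as this, a change in the make-up of the culture and a change per cell cannot be told apart.

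Under octanoate, 4 of the 10 factors were lower (FASTKD5, FASTKD3, TFAM and FASTK), 2 were higher (FASTKD1 and POLRMT) and 4 were not called (LRPPRC, SLIRP, PNPT1 and FASTKD2). The changes were small: FASTKD5 moved most and fell by 25.4%, while FASTKD1 rose by 18.6%. A gene counts as called here at a Benjamini-Hochberg adjusted p under 0.05 in a limma fit over 20250 genes. By that rule 29.9% of all tested genes were called, 16.2% higher and 13.7% lower, and among the 8607 tested genes with a mean count in the range of these 10 the share was 38.2%. The median log2 difference of the 10 was -0.08, beside 0.01 over all tested genes and -0.02 over the 8607 in their count range. The median absolute log2 difference was 0.18, beside 0.19 over all tested genes and 0.13 over those 8607. The octanoate and vehicle libraries did not overlap for 8 of the 10 genes, where 63.1% of all tested genes had no overlap. FASTKD5, FASTKD3, TFAM and POLRMT, 4 of the 10, had an adjusted p under 0.05 in the authors' deposited table. Of all 33533 genes listed there 12.9% did. That list also holds genes under the mean of 10 set for limma, so 12.9% is not a like background for these 10. The calls depend on how the variance is estimated. Without an intensity trend in limma's variance prior none of the 10 was called, though 1 higher and 2 lower had an unadjusted p under 0.05, and 8.02% of all tested genes were called. On the recovered reads edgeR called 2 higher and 5 lower of the 10, and 6480 of all 20250 genes. DESeq2 called 1 higher and 3 lower of the 10, and 4180 of the 17335 genes to which it gave an adjusted p.

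**Figure D1:**
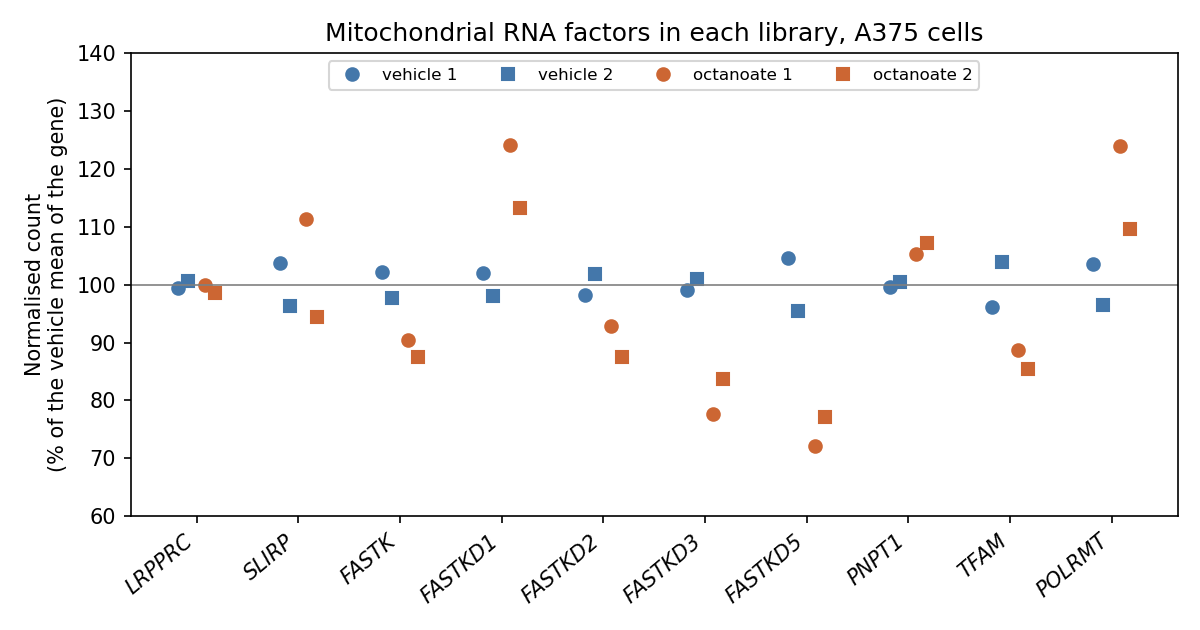
Normalised count of each factor in each library, as a percentage of the mean of the vehicle libraries of the same gene (vertical axis, which starts at 60), with vehicle in blue, octanoate in orange, circles for replicate 1 and squares for replicate 2. FASTKD5 sits at 72.1% and 77.1% in octanoate, FASTKD1 at 124% and 113%, and the LRPPRC points all lie between 98.6% and 101%.

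The pentatricopeptide repeat protein LRPPRC and the small RNA-binding protein SLIRP form a complex that coats mitochondrial mRNAs and supports their polyadenylation and stability. LRPPRC (GRCh38, chr2:43886508-43996005, minus strand) had normalised counts of 22743 and 23003 in vehicle and of 22872 and 22547 in octanoate. The groups overlapped and all libraries lay close together. The log2 difference was -0.01 (limma adjusted p 0.914, SE 0.06), with a 95% interval from -0.13 to 0.10. SLIRP (chr14:77708071-77761104, plus strand) stood at 6005 and 5571 in vehicle and at 6442 and 5467 in octanoate. Its highest and its lowest library were both octanoate libraries. The log2 difference was 0.04 (limma adjusted p 0.734, SE 0.07), with an interval from -0.10 to 0.18, and its sign was negative without vehicle 2, without octanoate 1 and after correction for GC content and length. Per kilobase of principal transcript, the LRPPRC level was 0.244 and 0.266 of the SLIRP level in vehicle and 0.229 and 0.266 in octanoate, so this ratio overlapped between the groups too. SLIRP shares 275 exonic bases with C14orf178 on the same strand and 118 with SNW1 on the opposite strand. C14orf178 had at most 3.88 normalised counts in any library, and SNW1 stood between 5790 and 6258.

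FASTK and its relatives FASTKD1 to FASTKD5 share a C-terminal region that holds the RAP domain, an RNA-binding fold, and each acts on its own set of mitochondrial transcripts. FASTKD5 (chr20:3146519-3159897, minus strand), which is needed to mature mRNAs whose ends are not set by a tRNA, changed most of all 10 factors. Its normalised count was 3471 and 3169 in vehicle and 2393 and 2559 in octanoate. Both octanoate libraries lay well below both vehicle libraries. FASTKD5 fell by 0.42 on the log2 scale (SE 0.07, 95% interval -0.56 to -0.29, limma adjusted p 2.37e-05), and in the authors' deposited table the log2 fold change was -0.42 with an adjusted p of 1.56e-06. The call held without each library in turn but not without the intensity trend (limma adjusted p 0.0728). FASTKD5 shares 132 exonic bases with UBOX5 on the same strand; UBOX5 itself stood at 442 and 397 in vehicle and 501 and 464 in octanoate.

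FASTKD3 (chr5:7859159-7869037, minus strand), which has been tied to the turnover of several mRNAs and to complex IV, was the other clear fall. It had 1589 and 1619 normalised counts in vehicle against 1246 and 1343 in octanoate. Again there was a gap between the groups that was wider than the distance between replicates. The log2 difference was -0.31 (SE 0.07, 95% interval -0.46 to -0.16, limma adjusted p 0.00170). In the authors' deposited table it was -0.31 with an adjusted p of 0.00512. Here as well the call held without each library in turn and was lost without the intensity trend (limma adjusted p 0.0905). FASTKD3 overlaps MTRR on the opposite strand by 100 exonic bases, and whether counting used strand is not given in the sources used here. MTRR is the more abundant of the pair by reads and stood between 5175 and 5522 in all libraries.

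FASTK (chr7:151076593-151080866, minus strand), the founding member, whose mitochondrial form keeps the ND6 mRNA stable, was lower by a smaller margin. Counts were 4279 and 4089 in vehicle and 3781 and 3661 in octanoate, with no overlap. The log2 difference was -0.17 (95% interval -0.29 to -0.05, limma adjusted p 0.0357, SE 0.06). This call was lost when any of the 4 libraries was left out (adjusted p from 0.0582 to 0.213), and in the authors' deposited table FASTK had an adjusted p of 0.0532. FASTKD2 (chr2:206765357-206792509, plus strand), which binds the large mitochondrial rRNA and supports ribosome assembly, had 4171 and 4322 in vehicle and 3940 and 3716 in octanoate. The libraries of the groups did not overlap, but the log2 difference of -0.15 (SE 0.06) missed the threshold (limma adjusted p 0.0647). It passed under 5 of the 16 alternatives, edgeR on the recovered reads among them (adjusted p 0.0383). FASTKD2 and MDH1B share 191 exonic bases on opposite strands, and MDH1B stood at 123 and 110 normalised counts in vehicle and 50.1 and 55.3 in octanoate.

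FASTKD1 (chr2:169529749-169573875, minus strand), whose loss has been linked to a higher level of the ND3 mRNA, went the other way. It had the lowest counts of the 10 factors, 884 and 851 in vehicle and 1077 and 983 in octanoate. Both octanoate libraries were above both vehicle libraries. The log2 difference was 0.25 (SE 0.08, 95% interval 0.08 to 0.41, limma adjusted p 0.0211). It was not called in the authors' deposited table (adjusted p 0.0808), nor without vehicle 1, vehicle 2 or octanoate 1 (limma adjusted p 0.0570, 0.129 and 0.218). With FASTKD5 down and FASTKD1 up, the ratio of their levels per kilobase went from 4.05 and 3.85 in the vehicle libraries to 2.29 and 2.69 in the octanoate libraries. These genes form the ends of the range of the 10. Neither had overlapping groups and their directions were opposite, so a gap in this ratio was fixed in advance. The remaining relative, FASTKD4, is listed as TBRG4 and stabilises a group of mitochondrial mRNAs. TBRG4 stood at 11233 and 10802 in vehicle and 11451 and 10112 in octanoate, with a log2 difference of -0.03 (limma adjusted p 0.733, SE 0.06).

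**Figure D2:**
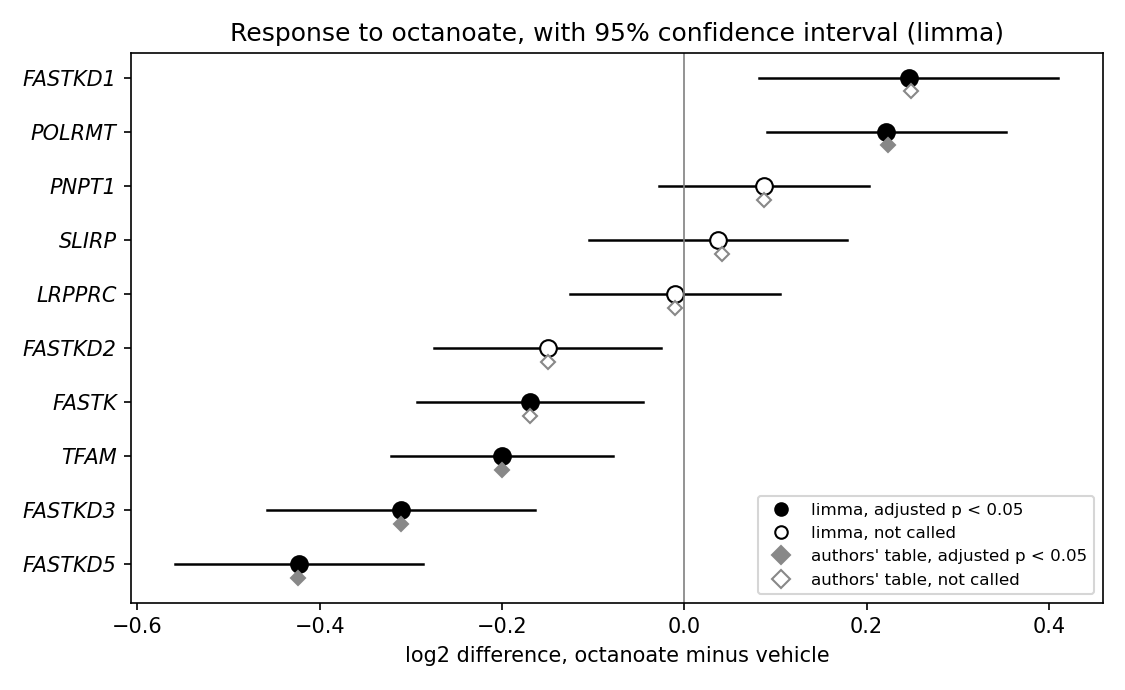
Log2 difference between octanoate and vehicle for each factor (horizontal axis), ordered by size, with 2 libraries per group. Circles are limma values with lines for their 95% confidence intervals, grey diamonds are the log2 fold changes of the authors' deposited table, and filled symbols have an adjusted p under 0.05; FASTKD5 at -0.42 and FASTKD1 at 0.25 form the ends of the range.

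PNPT1 (chr2:55634265-55693910, minus strand) encodes polynucleotide phosphorylase, the exonuclease that degrades mitochondrial RNA together with the helicase SUPV3L1. Its normalised counts were 8135 and 8197 in vehicle and 8594 and 8760 in octanoate. Replicates lay close together and the groups did not overlap. The log2 difference of 0.09 (SE 0.06) was nevertheless not called (limma adjusted p 0.257), and the 95% interval ran from -0.03 to 0.20. SUPV3L1 had a log2 difference of -0.04 (limma adjusted p 0.670, SE 0.06). Transcripts of PNPT1 share stretches of up to 307 bases at 95% identity or more with those of 99 other genes, and SLIRP transcripts do so with 90, up to 286 bases. How reads from such stretches were assigned is not given in the sources used here.

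The mitochondrial RNA polymerase POLRMT and the packaging and initiation factor TFAM act together at the mitochondrial promoters, and they moved in opposite directions. POLRMT (chr19:617224-633604, minus strand) had 7059 and 6583 normalised counts in vehicle and 8457 and 7473 in octanoate. All octanoate values were above all vehicle values, although octanoate 2 lay nearer to vehicle 1 than to octanoate 1. It rose by 0.22 on the log2 scale (SE 0.06, 95% interval 0.09 to 0.35, limma adjusted p 0.00997), and the authors' deposited table lists 0.22 with an adjusted p of 0.0109. The call was lost without vehicle 2 (log2 difference 0.17) and without octanoate 1, where the difference fell to 0.13 (limma adjusted p 0.122 and 0.237). POLRMT shares 3668 bases at 97.8% identity with the pseudogene POLRMTP1, so its count is uncertain; POLRMTP1 was listed at 94.2 and 75.6 in vehicle and 96.3 and 108 in octanoate. TFAM (chr10:58385022-58399221, plus strand) had 7753 and 8389 in vehicle and 7155 and 6894 in octanoate, again without overlap. TFAM was lower, with a log2 difference of -0.20 (SE 0.06, 95% interval -0.32 to -0.08, limma adjusted p 0.0121), and the authors' deposited table gives -0.20 with an adjusted p of 0.0103. It was not called without vehicle 2 or octanoate 2 (limma adjusted p 0.156 and 0.108). Per kilobase, TFAM stood at 0.778 and 0.903 of POLRMT in the vehicle libraries and at 0.599 and 0.653 in the octanoate libraries. This gap too follows from groups that did not overlap for either gene, in opposite directions.

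Because TFAM and POLRMT moved apart and FASTKD3 fell, the upstream sequences of these 3 genes are shown, the 250 bases before the transcript start in RefSeq (GRCh38.p14), 5′ to 3′ on the strand of the gene. Capitals mark matches on either strand to short letter patterns: GCGCANGCG for NRF1 and CCGGAAG for ETS factors such as GABPA, both known regulators of nuclear genes for mitochondria, CCAAT for the CCAAT box, CACGTG for the E-box and AAGGTCA for the ERR half-site. Neighbouring matches can overlap and then run together.
TFAM (chr10:58385160-58385409, plus strand): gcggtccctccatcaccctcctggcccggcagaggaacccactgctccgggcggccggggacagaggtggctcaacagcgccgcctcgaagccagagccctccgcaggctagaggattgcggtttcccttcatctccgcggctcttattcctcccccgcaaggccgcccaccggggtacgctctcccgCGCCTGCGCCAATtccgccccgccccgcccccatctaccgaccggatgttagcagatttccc
POLRMT (chr19:633538-633787, minus strand): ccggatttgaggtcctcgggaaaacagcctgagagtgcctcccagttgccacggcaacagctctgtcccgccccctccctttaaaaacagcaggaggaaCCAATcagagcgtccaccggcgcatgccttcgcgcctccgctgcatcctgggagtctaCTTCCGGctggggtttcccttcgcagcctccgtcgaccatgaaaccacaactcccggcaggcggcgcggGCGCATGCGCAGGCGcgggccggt
FASTKD3 (chr5:7869032-7869281, minus strand): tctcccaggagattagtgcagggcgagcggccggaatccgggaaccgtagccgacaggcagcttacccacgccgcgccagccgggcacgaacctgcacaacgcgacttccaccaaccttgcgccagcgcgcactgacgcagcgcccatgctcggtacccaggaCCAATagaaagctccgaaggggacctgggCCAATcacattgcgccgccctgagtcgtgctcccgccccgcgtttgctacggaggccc

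TFAM had a match to the NRF1 pattern that ends 54 bases before the start, where it overlaps a CCAAT box by 1 base. POLRMT had 3 overlapping NRF1 matches between 24 and 10 bases before the start, an ETS match that begins 93 bases before it, and a CCAAT box further up. The NRF1 pattern, found in 7.0% of 27305 promoters of the same length, was thus present both in the gene that rose and in the gene that fell, and among 9 of the factors it was found in these 2. FASTKD3 held 2 CCAAT boxes and none of the other patterns. The CCAAT box was found in 6 of the 9 (LRPPRC, FASTK, FASTKD3, PNPT1, TFAM and POLRMT) and in 33.0% of all promoters, and the ETS pattern in 2 (SLIRP and POLRMT) and 8.8%. FASTKD2 had an ERR half-site, which 3.5% of promoters hold, and no E-box was found in any of the 9, beside 6.5% of all promoters. FASTKD5 was not searched. A match is only a match of letters, and these patterns say nothing about binding in A375 cells.

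Levels were compared between genes per kilobase of principal transcript in the vehicle libraries. LRPPRC, at 3590 and 3631 normalised counts per kilobase, was above all factors but SLIRP, whose short transcript of 408 bases gave 13654 and 14718. Then came FASTK (2238 and 2342), PNPT1 (1844 and 1858), POLRMT (1717 and 1841), TFAM (1432 and 1550), FASTKD2 (1308 and 1356), FASTKD5 (1103 and 1208), FASTKD3 (662 and 674) and FASTKD1 (287 and 298). Neighbours in this order did not overlap in vehicle, but PNPT1 and POLRMT nearly touched. In octanoate the mean of POLRMT, 2077, was ahead of those of FASTK (2037) and PNPT1 (1967). There the libraries of POLRMT (2205 and 1949) overlapped those of FASTK (2069 and 2004) and of PNPT1 (1948 and 1986). The order rests on the length used: per kilobase of all annotated exons LRPPRC came first (2344) and SLIRP second (2200), and FASTK (1100) stood below PNPT1, TFAM, POLRMT and FASTKD5. FASTKD1 was last and FASTKD3 next to last either way.

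The same comparison was made for 65 other genes of mitochondrial RNA and DNA metabolism, grouped by role. Of these, 3 were called higher and 6 lower, which is 13.8% of the 65 beside 29.9% of all tested genes, and their median log2 difference was -0.03. The count of lower genes was sensitive to the processing: it was 12 with equal column totals, 11 with edgeR, 17 after correction for GC content and length, 3 without vehicle 1 and 11 without vehicle 2. Without the intensity trend MTERF1 was the only one of the 65 called. Among 7 further genes listed under mitochondrial transcription, 1 was higher and 1 lower. MTERF1, which binds downstream of the rRNA genes and can end transcription there, stood at 2752 and 2840 in vehicle and 1889 and 2027 in octanoate, a log2 difference of -0.51 (limma adjusted p 1.33e-06, SE 0.07), and was called under all 16 alternatives. TFB1M, which methylates the small rRNA, went from 4188 and 3932 to 4641 and 4675, a log2 difference of 0.20 (limma adjusted p 0.0136, SE 0.06). The call of TFB1M was lost without vehicle 2, octanoate 1 or octanoate 2. Among 9 genes of mitochondrial DNA replication and the nucleoid, only POLG2, the accessory subunit of the DNA polymerase, was called, with 2152 and 2036 in vehicle and 2511 and 2555 in octanoate (log2 difference 0.28, limma adjusted p 0.00205, SE 0.06). RNASEH1 missed the threshold at 0.15 (limma adjusted p 0.0672, SE 0.06), with 0.10 without octanoate 1, and was called in 4 of 16 alternatives.

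Among 5 genes that act on RNA ends and cleavage, 1 was called lower and none higher, and all 5 log2 differences were negative. Of the 65 genes together 44 had a negative difference, and so did 9979 of all 20250 tested genes. HSD17B10, a subunit of mitochondrial RNase P that is also a dehydrogenase of isoleucine breakdown, fell from 8465 and 7771 to 6785 and 6414, a log2 difference of -0.30 (limma adjusted p 0.000486, SE 0.06). Its partner TRMT10C had a log2 difference of -0.15 (limma adjusted p 0.0627, SE 0.06). That of TRMT10C was -0.08 without octanoate 2 and -0.23 without octanoate 1 (limma adjusted p 0.0236), and it was called in 7 of 16 alternatives. The catalytic subunit PRORP, listed as KIAA0391, had one of -0.13 (limma adjusted p 0.429, SE 0.11). None of 6 genes of poly(A) tails and RNA decay was called by limma or DESeq2, while edgeR called 1 lower, and 2 had an unadjusted limma p under 0.05, both lower. Those nearest were ENDOG (-0.51, limma adjusted p 0.0551, SE 0.20), whose replicates lay far apart at 750 and 414 in vehicle and 520 and 294 in octanoate, and PDE12 (-0.13, limma adjusted p 0.0826, SE 0.06). ENDOG turned on single libraries: its log2 difference was -0.08 without vehicle 1 and -0.10 without octanoate 2, but -0.94 without vehicle 2 and -0.92 without octanoate 1, where it was called, and it was called in 7 of 16 alternatives. The poly(A) polymerase MTPAP, like PRORP, SUPV3L1, TBRG4, NRF1 and GABPA, was named for its role and not by size; it stood at -0.07 (limma adjusted p 0.445, SE 0.07).

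In the 12 RNA granule and PPR proteins, 2 were lower and none higher. RPUSD3, a pseudouridine synthase, went from 5756 and 5365 to 4811 and 4582, a log2 difference of -0.24 (limma adjusted p 0.00328). WBSCR16, a granule protein of rRNA assembly, went from 10017 and 8994 to 8596 and 7910, a log2 difference of -0.20 (limma adjusted p 0.0160). Neither was called without vehicle 1, and WBSCR16 was not called without octanoate 2. Of 16 RNA-modifying enzymes 1 was higher and 1 lower. These were GTPBP3 and TRMU, which both modify the wobble base of mitochondrial tRNAs. GTPBP3 had 3955 and 3627 in vehicle and 4669 and 4402 in octanoate (log2 difference 0.26, limma adjusted p 0.00265). TRMU had 3225 and 3148 in vehicle and 2752 and 2669 in octanoate (log2 difference -0.23, limma adjusted p 0.00546). Leaving out vehicle 2 ended the call of GTPBP3, and leaving out vehicle 1 or octanoate 2 ended that of TRMU. Of 10 translation factors only C12orf65, a release factor family member that rescues stalled ribosomes, was called, from 3147 and 3212 to 2453 and 2391 (log2 difference -0.39, limma adjusted p 2.79e-05, SE 0.06), while TSFM had one of -0.18 (limma adjusted p 0.0530, SE 0.07). TSFM was called in 8 of 16 alternatives, among them the one without vehicle 2 (limma adjusted p 0.0413), and its log2 difference was -0.11 without vehicle 1.

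Nuclear regulators that govern such genes were a separate list of 10, of which 3 were higher and none lower, though edgeR called 1 lower. The share called, 30%, was close to the 29.9% of all tested genes. Of the 10 log2 differences 5 were positive and 5 negative, with a median of 0.004. MYC went from 1112 and 1034 to 1698 and 1660 normalised counts, a log2 difference of 0.65 (limma adjusted p 1.94e-07, SE 0.07). PPARGC1B, a coactivator of mitochondrial biogenesis, went from 869 and 900 to 1207 and 1245, a log2 difference of 0.47 (limma adjusted p 3.36e-05, SE 0.08). ESRRA, the nuclear receptor with which PPARGC1B acts, is named after its values were seen; its log2 difference was 0.33 (limma adjusted p 0.000847, SE 0.07). NRF1 itself stood at 1637 and 1572 in vehicle and 1613 and 1584 in octanoate (log2 difference -0.01, limma adjusted p 0.966), and GABPA at 4572 and 4793 against 4287 and 4215 (log2 difference -0.14, limma adjusted p 0.0794).

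**Figure D3:**
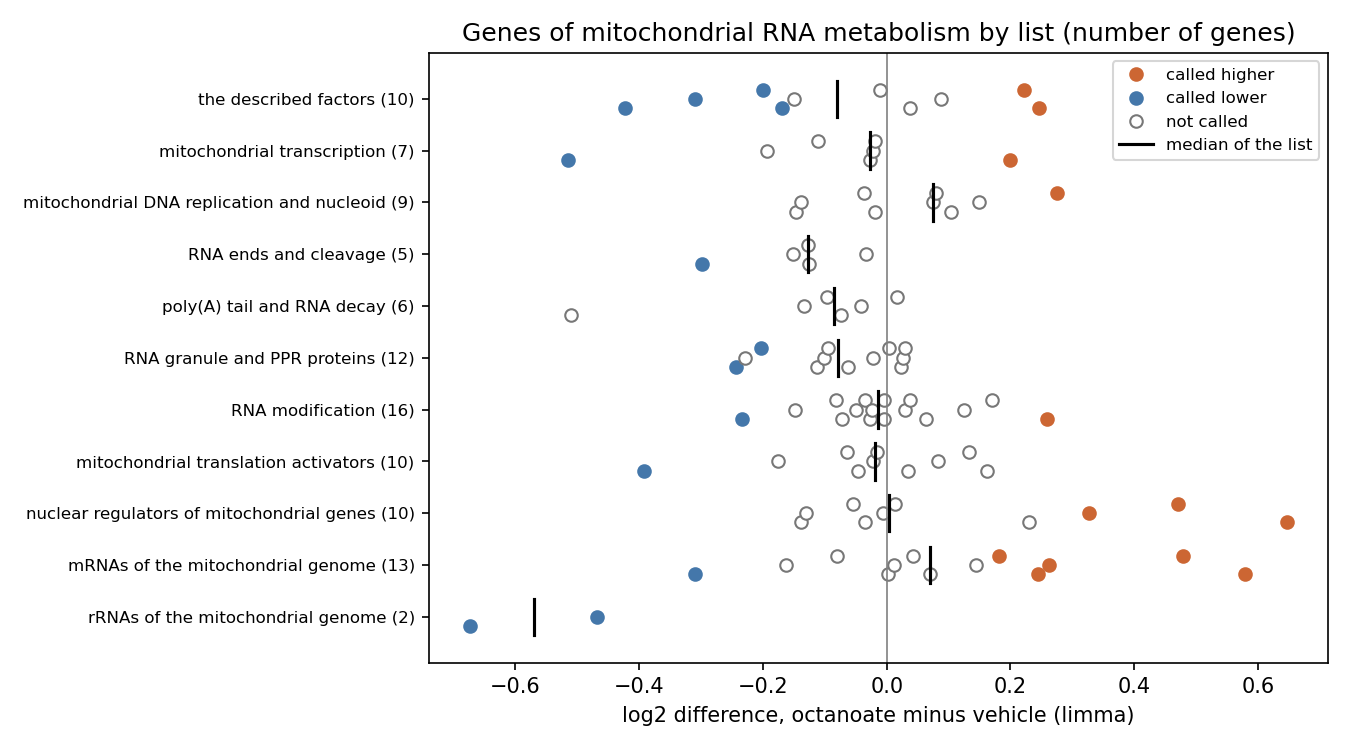
Log2 difference between octanoate and vehicle (horizontal axis, limma, 2 libraries per group) for each gene of each list, with the number of genes in brackets, filled in orange where called higher, filled in blue where called lower and open where not called. Black bars are list medians; the described factors reach from -0.42 to 0.25, and the rRNAs of the mitochondrial genome lie at -0.67 and -0.47.

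The RNAs on which these factors act moved unevenly. Of 13 protein-coding genes of the mitochondrial genome 5 were higher and 1 lower. These are counts of genes, not of separate mRNAs. MT-ND4L stood at 33178 and 33201 in vehicle and 46584 and 45978 in octanoate (log2 difference 0.48, limma adjusted p 5.53e-07). MT-ND4 had a log2 difference of 0.58 (limma adjusted p 2.80e-06). The rRNAs MT-RNR1 (-0.67, limma adjusted p 3.93e-07) and MT-RNR2 (-0.47, limma adjusted p 2.64e-05) were both lower. These are levels in the libraries, and how much rRNA the library preparation kept was not tested. MT-RNR1 had 60210 and 56349 in vehicle, and its octanoate replicates lay apart at 32365 and 41221. Its log2 difference was -0.50 without octanoate 1 and -0.85 without octanoate 2. MT-ND6, the target of FASTK and named for that reason after its values were seen, was higher at 41059 and 40666 against 35397 and 36717 (log2 difference 0.18, limma adjusted p 0.0199, SE 0.06); it lies antisense to other mitochondrial transcripts, so without a stated strand setting its count is uncertain. MT-ND3, linked above to FASTKD1 and also named after its values were seen, was not called (log2 difference 0.04, limma adjusted p 0.642, SE 0.06). Over all tested genes 16.2% were called higher and 13.7% lower. Without the intensity trend 2 of the 13 protein-coding genes, MT-ND4L and MT-ND4, were called higher and none lower. The rRNAs were then not called (limma adjusted p 0.0836 for MT-RNR1 and 0.0624 for MT-RNR2).

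The calls changed more often across the processing than the directions, but part of this was fixed in advance. Over 16 alternatives, 9 of the 10 factors kept their sign in every one, and SLIRP did in 13. Changing the filter, the trend, the block or the annotated gene set leaves the log2 difference itself unchanged, so these cannot test the direction. Leaving out a library cannot turn the sign of the 8 factors whose groups did not overlap. LRPPRC ranged from -0.02 to -5.43e-05, the latter without octanoate 2, so its kept sign carries no weight. FASTKD5 and FASTKD3 were each called in 15, TFAM and POLRMT in 12, FASTKD1 in 10, FASTK in 9, FASTKD2 in 5, and LRPPRC, SLIRP and PNPT1 in none.

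**Figure D4:**
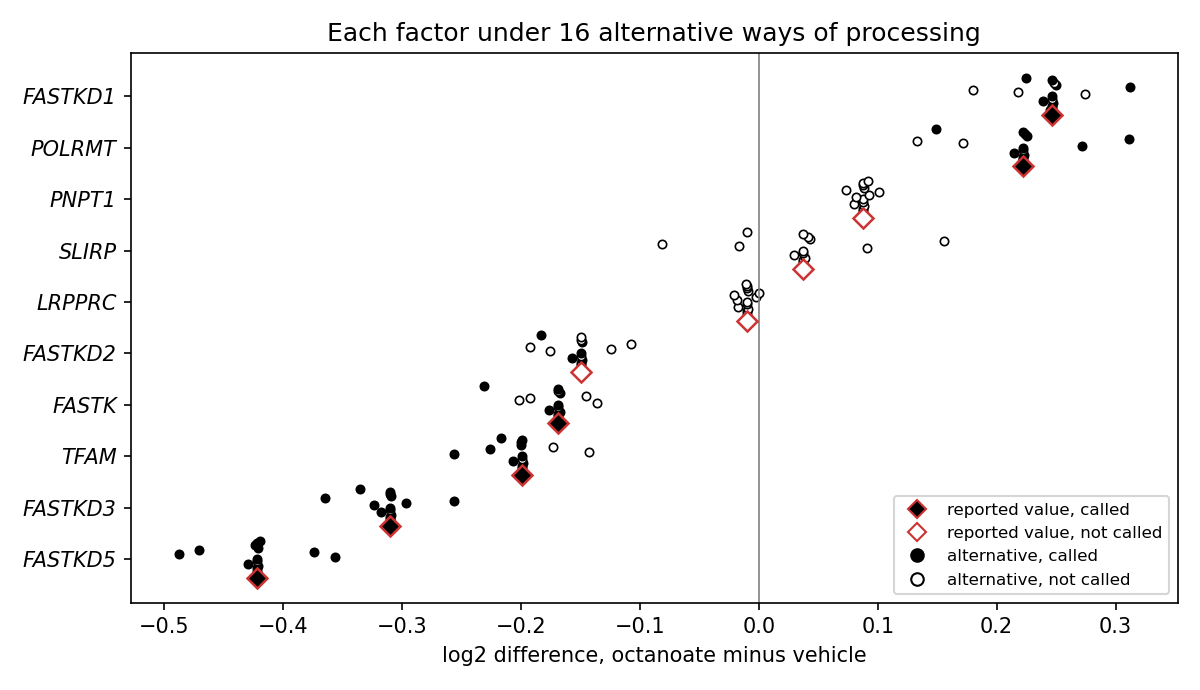
Log2 difference of each factor (horizontal axis) as reported (diamond with red edge) and under 16 alternatives (small circles, spread vertically for legibility), filled where the adjusted p was under 0.05. FASTKD5 ranges from -0.49 to -0.36 and FASTKD3 from -0.36 to -0.26, and only SLIRP has points on both sides of 0.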

How the data were processed

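RNA of 4 A375 libraries (2 vehicle, 2 octanoate) was extracted with a Zymo kit and prepared with a NEBNext Ultra kit, per the labels' protocols. The submitters' processing notes name bcl2fastq 2.17, Trim Galore, STAR 2.4, Picard, HTSeq 0.9.1, DESeq2 and the hg38 build; the annotation and the strand setting are not given in the sources used here. The deposited signal is a count per gene divided by 1 size factor per library, a DESeq2-normalised count per the table's name. Dividing by the smallest positive value of a library gave whole numbers for 100% of values (relative tolerance 1e-06), taken as reads. The second table, deposited by the authors, holds the mean signal, log2 fold change with its standard error, test score, p-value and adjusted p-value of octanoate against vehicle.

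The main comparison was limma 3.58.1 (R 4.3.3) with an intensity trend, run on log2(normalised count + 1) over all 20250 genes with a mean of at least 10, two-sided, Benjamini-Hochberg adjusted over these genes. The log2(value + 1) scale understates changes of low genes. An exact permutation test of 2 against 2 cannot go below p = 0.333. All 10 factors and the 65 other genes were tested. The members and lists were chosen with earlier results of these data known. Named besides the 10 were the 2 genes of each other list with the smallest p. Alternatives were other pseudocounts, filters, scalings (TMM and totals), no trend, a replicate block, leaving out each library, edgeR 4.0.16 and DESeq2 1.42.0 on recovered reads, GENCODE 29 genes only, and GC content and length trends removed. Positions, lengths and overlaps came from GENCODE 29, shared sequence from blastn 2.17.0 (at least 95% identity over 100 bases), and upstream sequences from RefSeq.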

Additional observations from a re-analysis of the deposited data

How the results depend on the processing

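All genes called, 6048 as reported (54.1% of them higher), were 2595 with no filter on low counts and 1625 without the intensity trend. Among the 10 factors, 2 higher and 4 lower as reported, no filter gave 0 higher and 2 lower and no trend gave 0 higher and 0 lower, while DESeq2 gave 1 higher. Leaving out each library in turn gave 0 to 2 higher and 2 to 3 lower. Among the 65 other genes, 3 higher and 6 lower as reported, the counts were 1 and 2 with no filter, 0 and 1 without the trend, and 1 to 3 and 3 to 11 when a library was left out. Lower calls among them were 12 with equal column totals, 11 with edgeR and 17 after correction for GC content and length. The cause of these shifts was not tested. SLIRP, with a log2 difference of 0.04 as reported, changed sign to -0.0099 after that correction, and ranged from -0.081 to 0.16 when a library was left out. The correction also moved the share of higher calls from 52.6% (GENCODE 29 genes) to 42.2%; GC content was known for 77.1% of tested genes, so that check is void over all genes, though the 10 factors and the 65 genes have a value. The median of the 10 was -0.14 without octanoate 1, and between -0.10 and -0.05 under the other alternatives.

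What a replicate number stands for is not stated, and with 2 pairs the numbers were not taken to pair the libraries. The deviations of the libraries numbered 1 had a correlation of 0.13 across genes. A fit with a replicate block on the number called 8376 genes, 7 of the 10 factors (FASTKD2 added), and 7 higher and 17 lower of the 65. The smallest count among the 10 was 878 reads. The standard error was largest for FASTKD1 (0.079), which had the fewest reads, and smallest for LRPPRC (0.056), which had the most. How much counting adds to these errors was not tested. The intervals follow from a variance that limma draws from all tested genes as well as from the 2 libraries per group.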
